A study of Homo sapiens with 24 samples.

Results

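The glutamine, glutamate and transaminase enzymes were 9 genes of the 39321 in the count table, chosen by name: *GLS2*, *GLUL*, *GLUD1*, *GLUD2*, *GOT1*, *GOT2*, *GPT*, *GPT2* and *GFPT1*. They were found by matching Ensembl identifiers to symbols, and every one of the 9 had a row. They were followed in A498 and 786-O, both long-established human lines that model clear cell renal cell carcinoma (ccRCC). Cells received a control siRNA (Cnsi) or a pooled siRNA against *CD274*, the gene that encodes PD-L1 (PD-L1si). The siRNA dose was 20 nM, and cells were then left without IFNγ or given IFNγ at 50 ng/mL for 24 h. This gave 4 groups per line with 3 libraries each, 24 libraries in all. All groups were transfected, so the controls carry a siRNA too. The labels call the PD-L1si cells knockouts, whereas the study's methods describe a transient siRNA. Each line is a single culture-adapted line, and nothing says that the replicates were separate cultures, so that p-values measure the spread between these libraries, which may be technical.

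Glutamine is the most abundant amino acid in plasma and feeds nitrogen and carbon to tumor cells. *GLS2* releases ammonia from it and leaves glutamate, and glutamine synthetase (*GLUL*) runs the opposite way. Glutamate becomes the TCA cycle intermediate α-ketoglutarate either through glutamate dehydrogenase (*GLUD1*, and its X-linked, intronless copy *GLUD2*) or by handing its amino group on through aminotransferases. *GOT1* (cytosol) and *GOT2* (mitochondria) move amino groups between glutamate and oxaloacetate as limbs of the malate-aspartate shuttle, and *GPT* (cytosol) and *GPT2* (mitochondria) move them between glutamate and pyruvate. *GFPT1* spends the amide nitrogen of glutamine on fructose 6-phosphate in the first and rate-limiting step of the hexosamine pathway, which ends in UDP-N-acetylglucosamine for protein glycosylation. The study asked whether PD-L1 carries part of the effect of IFNγ on the metabolism of ccRCC cells, glutamine use included.

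Libraries held from 19256316 to 30350461 counts on genes. They are named by the line on their label, because the labels of the lines appear to be exchanged when set against the study's own tables of IFNγ effects. Which line a library came from is therefore in doubt, and each line is written here as a label. The lines were sequenced on different instruments, so line and instrument cannot be told apart. The rows of *GFPT1* and *GLUL* were at 0 in all 12 libraries labelled 786-O, as were 1475 genes, *ACTB* among them, that had over 1000 counts with the label A498. Such rows were treated as not measured in that line, which left 7 of the 9 genes there. Of 12 kidney carcinoma markers, 10 had counts in the libraries of both labels, with *PAX8* between 1632 and 7069 counts, and the rows of *PAX2* and *CDH2* were at 0 in those labelled 786-O. Some of the 10 had few counts. With the label 786-O, *NDUFA4L2* had 2 to 10, *EPCAM* 4 to 18 and *CA9* 206 to 916. With the label A498, *CA9* had 15 to 63, *NDUFA4L2* 19 to 98 and *EPCAM* 43 to 126. Of 11 lymphocyte markers 7 had a row, and 6 of these (*PTPRC*, *CD3D* and *CD8A* included) had at most 3 counts in any library, whereas *NKG7* had up to 30. In bulk RNA, fewer cells and less RNA per cell cannot be told apart.

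The siRNA target was lower in every library that received its siRNA than in the Cnsi libraries of the same line and IFNγ state. With PD-L1si, IFNγ still raised it 30.2-fold with the label A498 and 20.5-fold with the label 786-O. In the libraries labelled A498, *CD274* was at 3.99, 5.49 and 5.74 CPM with Cnsi, at 191, 199 and 191 with Cnsi and IFNγ, at 0.81, 1.01 and 0.926 with PD-L1si, and at 26.9, 28.5 and 27.7 with PD-L1si and IFNγ. CPM are counts scaled to a common library size after TMM normalization within a line. In those labelled 786-O the values were 3.87, 4.18 and 4.18, then 55.7, 59.6 and 65.8, then 1.46, 1.21 and 1.90, then 32.7, 30.8 and 30.6. Under IFNγ the siRNA lowered *CD274* by a log2 fold change of −2.81 (SE 0.0547, adjusted p = 1.60e-29) with the label A498 and of −0.94 (SE 0.0702, adjusted p = 6.72e-10) with the label 786-O. Here and throughout, adjusted p comes from the quasi-likelihood F-test of edgeR, adjusted over all genes tested by Benjamini-Hochberg, and SE is the standard error. A gene is said to have risen or fallen when adjusted p was below 0.05 and the log2 fold change exceeded 0.5 in size. A gene past the adjusted p alone is said to have moved under the fold threshold.

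The levels of the 9 genes spanned more than 3 orders of magnitude. Per kilobase of the canonical transcript, the order in Cnsi libraries labelled A498 was *GLUD1* (80.5 ± 5.29 CPM per kb, SD, n = 3), *GOT2* (59.3 ± 1.76), *GOT1* (39.6 ± 1.61), *GPT2* (33.4 ± 0.70), *GFPT1* (19.6 ± 0.10), *GPT* (1.38 ± 0.156), *GLS2* (0.551 ± 0.0437), *GLUD2* (0.123 ± 0.0332) and *GLUL* (0.0386 ± 0.00309). No neighbours in this order overlapped within 1 SD. With all annotated exons joined as the length, *GLUD1* stood at 18.6 CPM per kb and in place 5, so its lead rests on the transcript chosen. In the libraries labelled 786-O the order was *GOT2* (48.2 ± 0.764), *GLUD1* (32.1 ± 2.30), *GPT2* (25.7 ± 0.265), *GOT1* (20.5 ± 0.404), *GLUD2* (2.72 ± 0.0557), *GPT* (1.87 ± 0.0924) and *GLS2* (0.545 ± 0.0613). The mitochondrial forms *GOT2* and *GPT2* thus stood above their cytosolic partners *GOT1* and *GPT* in the Cnsi libraries without IFNγ of both labels. With Cnsi and IFNγ labelled A498, the mean of *GOT1* stood above that of *GOT2*, but they overlapped within 1 SD (52.2 ± 1.88 and 50.1 ± 0.451 CPM per kb). Before the division by length, *GOT1* was below *GOT2* there (103 ± 4.04 and 121 ± 1 CPM).

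**Figure D1:**
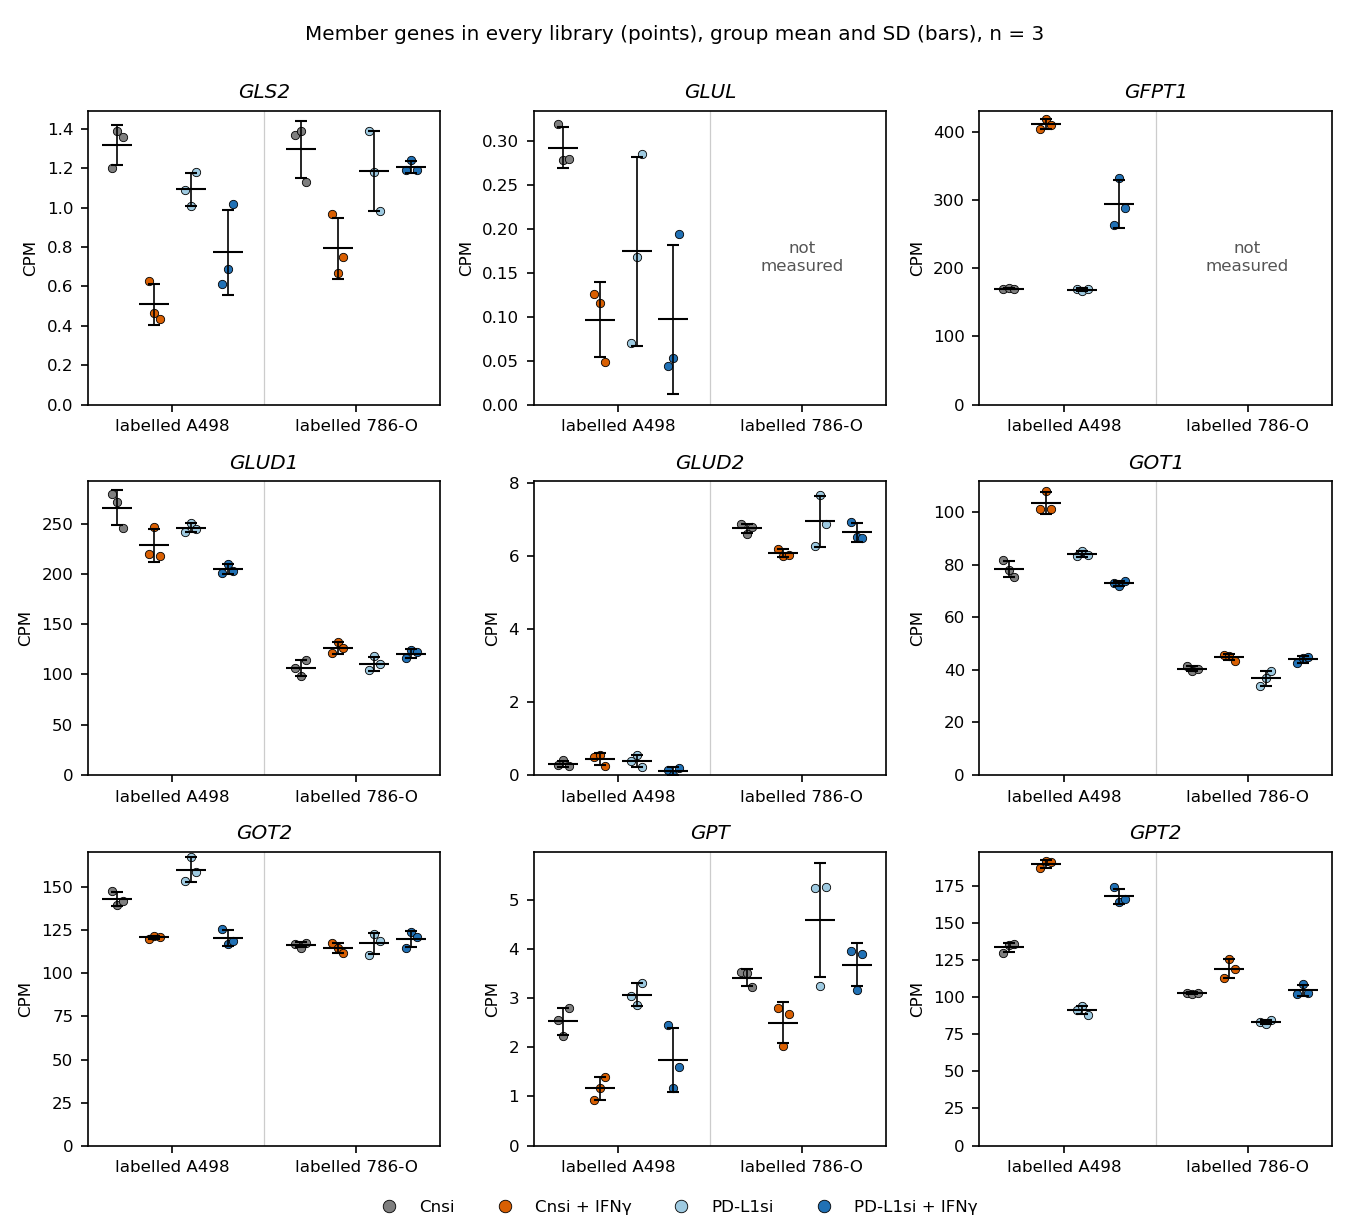
Level of each gene in every library, in CPM on a linear axis that starts at 0, with the libraries labelled A498 on the left and those labelled 786-O on the right of each panel. Points are libraries, horizontal bars are group means and whiskers are the SD (n = 3). *GFPT1* is at 405 to 419 CPM with Cnsi and IFNγ and at 263 to 333 with PD-L1si and IFNγ, against 166 to 171 in the groups without IFNγ.

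In Cnsi cells labelled A498, IFNγ raised *GFPT1* and *GPT2* and lowered *GLS2*, *GPT* and *GLUL*. Of the 9 genes, 2 rose and 3 fell, against 18.2% and 18.5% of all 20916 genes tested. Whatever the size, 8 of the 9 had an adjusted p under 0.05, against 61.3% of all genes. The median log2 fold change of the 9 was −0.22 and that of all genes tested −0.03. IFNγ moved a large share of the transcriptome in these libraries, and the counts of the 9 stand against that background.

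*GFPT1*, glutamine-fructose-6-phosphate transaminase, lies on the minus strand of chromosome 2 (GRCh38, 69319780 to 69387250). It was at 170, 171 and 169 CPM in Cnsi cells and at 405, 419 and 411 after IFNγ. The groups were far apart relative to their spread, with a log2 fold change of 1.28 (SE 0.0524, adjusted p = 1.22e-19), or 2.42-fold. It was the largest rise among the 9 in any IFNγ or siRNA comparison within a line. *GPT2*, the mitochondrial alanine aminotransferase (chromosome 16, 46884362 to 46931289, plus strand), was at 130, 135 and 136 CPM without and at 187, 192 and 191 with IFNγ. The groups did not overlap, and the log2 fold change was 0.51 (SE 0.0406, adjusted p = 2.24e-13). It stands just past the fold threshold and was 0.49 without replicate 1 of the Cnsi libraries. *GOT1*, the cytosolic aspartate aminotransferase (chromosome 10, 99396870 to 99430624, minus strand), went from 81.7, 77.9 and 75.4 to 101, 108 and 101 CPM. It moved up under the fold threshold, by 0.40 (SE 0.0437, adjusted p = 5.25e-10).

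*GLS2*, the glutaminase that liver expresses strongly, is on chromosome 12 (56470944 to 56488414, minus strand). It had 30, 35 and 34 counts in Cnsi cells and 15, 12 and 9 after IFNγ. All libraries with IFNγ were below all those without it, and the log2 fold change was −1.35 (SE 0.258, adjusted p = 2.35e-05). *GPT*, the cytosolic alanine aminotransferase (chromosome 8, 144502973 to 144507174, plus strand), fell from 64, 56 and 70 counts to 22, 30 and 29. Its log2 fold change was −1.13 (SE 0.208, adjusted p = 1.39e-05), opposite in sign to that of *GPT2*. *GLUL*, glutamine synthetase (chromosome 1, 182378098 to 182392206, minus strand), had only 8, 7 and 7 counts in Cnsi cells and 3, 3 and 1 after IFNγ. Its log2 fold change of −1.51 (SE 0.597, adjusted p = 0.0282) rests on these few counts. The call was lost in DESeq2 (adjusted p = 0.0987), without replicate 1 of Cnsi (0.0665) and without replicate 3 of Cnsi and IFNγ (0.0989), in a range of 0.0223 to 0.0989 over all alternatives.

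*GLUD1* and *GOT2* moved down by less, under the fold threshold, whereas the mitochondrial *GPT2* rose as given above. *GLUD1* (chromosome 10, 87050202 to 87094843, minus strand) was at 279, 272 and 246 CPM without and at 220, 247 and 218 with IFNγ, so that the groups overlapped by 1 library each (246 and 247). Its log2 fold change was −0.22 (SE 0.0466, adjusted p = 0.000117). *GOT2* (chromosome 16, 58707131 to 58734342, minus strand) went from 148, 140 and 142 to 120, 122 and 121 CPM, a log2 fold change of −0.24 (SE 0.0433, adjusted p = 8.30e-06) with groups that did not overlap. *GLUD2* (chromosome X, 121047610 to 121050094, plus strand) had 7, 10 and 6 counts and then 12, 14 and 5, and its log2 fold change of 0.52 did not pass the test (95% interval −0.35 to 1.38, adjusted p = 0.317).

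*GFPT1* and *GOT1* were the genes of the 9 that moved up with IFNγ in Cnsi cells and less, or not, in PD-L1si cells labelled A498. Their promoters are shown for that reason, as the 250 bases before the RefSeq transcript start (GRCh38.p14, minus strand, 5′ to 3′), at chr2:69387228-69387477 for *GFPT1* and chr10:99430625-99430874 for *GOT1*. Capitals mark a match to a motif searched on both strands.
GFPT1: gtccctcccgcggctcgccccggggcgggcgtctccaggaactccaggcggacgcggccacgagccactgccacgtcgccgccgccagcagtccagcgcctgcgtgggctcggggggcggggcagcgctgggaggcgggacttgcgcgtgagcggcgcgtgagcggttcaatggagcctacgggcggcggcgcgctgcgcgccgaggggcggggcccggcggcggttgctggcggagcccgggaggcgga
GOT1: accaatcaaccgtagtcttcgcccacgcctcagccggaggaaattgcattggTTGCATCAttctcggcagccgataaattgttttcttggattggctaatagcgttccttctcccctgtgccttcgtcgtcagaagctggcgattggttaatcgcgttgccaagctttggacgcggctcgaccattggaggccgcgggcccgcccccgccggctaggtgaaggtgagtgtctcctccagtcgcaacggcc
The motifs searched were GAS, the gamma-activated site (TTCNNNGAA), an ISRE core (GAAA, any 2 bases, GAAA) and an ATF4 composite site (TGATGNAA). *GOT1* held the ATF4 composite letters 198 bases before its start, on the strand opposite to the gene, and *GFPT1* held no match in this window. Of the promoters searched but not shown, that of *GLUL* held the ISRE core letters 196 bases before a RefSeq start. Those of *GLS2*, *GLUD1*, *GLUD2* and *GOT2* held no match. Of 35116 promoters of the same length, 6.57% held GAS letters, 3.02% the ISRE core and 3.14% the ATF4 composite. A match describes letters only.

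In the libraries labelled 786-O, IFNγ lowered *GLS2* in Cnsi cells, and the other genes moved less. Of 7 genes measured, 0 rose and 1 fell, against 11.1% and 7.39% of all 21209 genes tested. Whatever the size, 5 of 7 had an adjusted p under 0.05, against 38.8% of all genes. With DESeq2, only 2 of 7 had an adjusted p under 0.05 and 0 passed the call. *GLS2* had 43, 39 and 33 counts without and 27, 18 and 19 with IFNγ. The groups did not overlap, and the log2 fold change was −0.71 (SE 0.225, adjusted p = 0.0142). This call was lost in DESeq2 (adjusted p = 0.0525), without replicate 1 of Cnsi (0.0509) and without replicate 2 of Cnsi and IFNγ (0.0693), in a range of 0.00809 to 0.0693. *GPT* moved down by −0.45 (SE 0.177, adjusted p = 0.0481), with 110, 98 and 94 counts and then 78, 55 and 68, and its adjusted p ran up to 0.208 over the alternatives, while it passed the call without replicate 1 of Cnsi and IFNγ (−0.54, adjusted p = 0.0339). *GPT2* moved up by 0.22 (SE 0.0483, adjusted p = 0.000547), *GOT1* by 0.15 (SE 0.0569, adjusted p = 0.0430, up to 0.16 over the alternatives) and *GLUD1* by 0.26 (SE 0.0563, adjusted p = 0.000617), all under the fold threshold. *GOT2* was at 117, 115 and 118 CPM without and at 118, 115 and 112 with IFNγ, and the 95% interval of its log2 fold change was −0.12 to 0.07. *GLUD2* was at 6.61 to 6.87 CPM without and at 5.99 to 6.20 with IFNγ, with a log2 fold change of −0.15 (SE 0.0991, adjusted p = 0.236).

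The difference of the IFNγ effect between lines came from a joint fit of the 24 libraries, with the effect labelled A498 subtracted from that labelled 786-O. No gene of the 7 passed the call, against 15.1% higher and 13.2% lower of all 17999 genes tested in both lines; edgeR and DESeq2 each gave 0, while 5 of 7 had an unadjusted p under 0.05 in edgeR. Under the fold threshold, 4 of 7 differed, against 46.8% of all genes at that adjusted p. *GLUD1* moved down with the label A498 and up with the label 786-O, a difference of 0.47 (SE 0.0776, adjusted p = 3.41e-06), which passed 0.5 without replicate 3 of Cnsi (0.52) or replicate 2 of Cnsi and IFNγ (0.53) labelled A498, or without replicate 3 of Cnsi labelled 786-O (0.51). *GPT2* and *GOT1* moved up less with the label 786-O, by −0.29 (SE 0.0616, adjusted p = 0.00012) and −0.26 (SE 0.0714, adjusted p = 0.00253). *GOT2* differed by 0.21 (SE 0.0659, adjusted p = 0.00675, up to 0.172 over the alternatives). For *GLS2* and *GPT* the differences were 0.64 (95% interval −0.03 to 1.31, adjusted p = 0.127) and 0.67 (0.10 to 1.25, adjusted p = 0.0592), neither past the test. That of *GPT* passed in 7 alternatives, which were the replicate block (0.66, adjusted p = 0.0401) and the removal of replicate 2 of Cnsi (0.76), replicate 3 of Cnsi and IFNγ (0.80) or replicate 1 or 2 of PD-L1si and IFNγ (0.67 each) labelled A498, or of replicate 2 of Cnsi and IFNγ (0.81) or of PD-L1si (0.67) labelled 786-O, in a range of 0.0264 to 0.179.

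**Figure D2:**
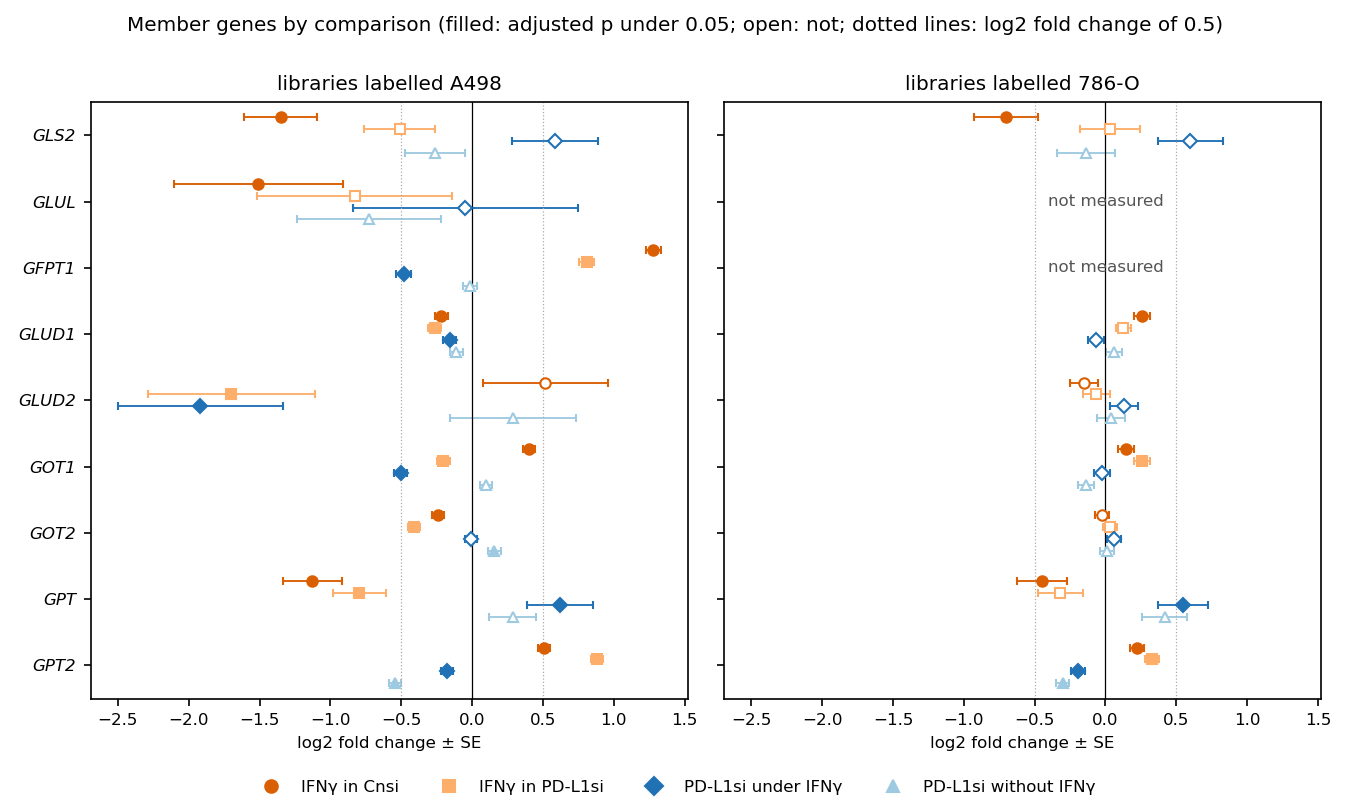
Log2 fold change of each gene with its standard error (whiskers) in 4 comparisons, for libraries labelled A498 (left) and 786-O (right). Filled symbols have an adjusted p under 0.05, open symbols do not, and dotted lines mark a log2 fold change of 0.5. *GFPT1* lies at 1.28 with IFNγ in Cnsi cells and at 0.81 in PD-L1si cells, and the values labelled 786-O lie between −0.71 and 0.60.

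With PD-L1si, IFNγ again raised *GPT2* and *GFPT1* and lowered *GPT* with the label A498, and *GLUD2* fell too. Of the 9 genes 2 rose and 2 fell, against 17.6% and 15.9% of all genes, and 7 of 9 had an adjusted p under 0.05, against 58.5%. *GPT2* went from 91.7, 94.2 and 88.3 to 174, 164 and 166 CPM, a log2 fold change of 0.88 (SE 0.0418, adjusted p = 1.19e-19). *GFPT1* went from 170, 166 and 169 to 263, 333 and 288 CPM, a log2 fold change of 0.81 (SE 0.0524, adjusted p = 1.53e-14). Its libraries with IFNγ were more spread than those of any other group. *GPT* went from 86, 68 and 93 counts to 56, 22 and 33, a log2 fold change of −0.80 (SE 0.185, adjusted p = 0.000348), with replicate 1 the highest after IFNγ. *GOT1* went from 83.2, 85.2 and 83.5 down to 73.1, 71.8 and 73.7 CPM, a log2 fold change of −0.20 (SE 0.0448, adjusted p = 0.00017), and *GOT2* from 154, 168 and 159 to 126, 117 and 119, one of −0.41 (SE 0.0434, adjusted p = 3.11e-10). *GLUD1* moved down from 242, 251 and 245 to 201, 210 and 203 CPM, by −0.27 (SE 0.047, adjusted p = 7.93e-06). *GLUD2* went from 11, 13 and 6 counts to 3, 0 and 4, a log2 fold change of −1.70 (SE 0.591, adjusted p = 0.0135). That call was lost without replicate 2 of PD-L1si (−1.39, adjusted p = 0.0762) and without replicate 2 of PD-L1si and IFNγ (−1.19, adjusted p = 0.0764), in a range of 0.00535 to 0.0764. *GLS2*, at 31, 24 and 33 counts and then 14, 13 and 21, did not pass with −0.51 (adjusted p = 0.0784), and passed without replicate 3 of PD-L1si and IFNγ (−0.76, adjusted p = 0.0249, in a range of 0.0249 to 0.293).

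In PD-L1si cells labelled 786-O, 0 of 7 genes passed the call with edgeR or with DESeq2, against 11.0% of all genes that rose and 7.45% that fell. At an unadjusted p under 0.05 there were 3, and at an adjusted p under 0.05 there were 2, against 38.5% of all genes. *GPT2* moved up from 83.0, 81.8 and 84.7 to 102, 109 and 103 CPM, by 0.33 (SE 0.0488, adjusted p = 4.47e-06). *GOT1* moved up from 33.9, 36.8 and 39.5 to 42.5, 44.6 and 44.7 CPM, by 0.26 (SE 0.0572, adjusted p = 0.000653), the opposite sign to the value labelled A498. *GLUD1* did not pass, with 0.13 (SE 0.0563, adjusted p = 0.0783, in a range of 0.0234 to 0.66 over the alternatives). *GLS2*, at 40, 36 and 30 counts and then 31, 36 and 33, overlapped fully between the groups, with a log2 fold change of 0.03 (95% interval −0.38 to 0.44). *GPT*, at −0.32 (SE 0.159, adjusted p = 0.121), passed the call without replicate 2 of PD-L1si (−0.52, adjusted p = 0.00500, in a range of 0.00500 to 0.414).

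Under IFNγ, PD-L1 siRNA lowered *GOT1* and *GLUD2* and raised *GPT* with the label A498. There, 1 gene of the 9 rose and 2 fell, against 4.36% and 5.75% of all genes tested, and 6 of 9 had an adjusted p under 0.05, against 34.1%. This comparison shares its Cnsi libraries with IFNγ with the IFNγ effect in Cnsi cells. *GOT1* was at 101, 108 and 101 CPM with Cnsi and at 73.1, 71.8 and 73.7 with PD-L1si. These groups lay far apart, with a log2 fold change of −0.50 (SE 0.0446, adjusted p = 1.91e-11). The fold stands at the threshold and was −0.50, −0.47 and −0.49, no longer past it, with edgeR's own filter on low counts, without replicate 2 of Cnsi and IFNγ and without replicate 2 of PD-L1si and IFNγ. *GFPT1*, at 405, 419 and 411 CPM with Cnsi and 263, 333 and 288 with PD-L1si, moved down by −0.48 (SE 0.0514, adjusted p = 5.35e-09), just under the threshold, and passed it without replicate 2 of PD-L1si and IFNγ (−0.58). *GPT2* moved down by −0.18 (SE 0.0405, adjusted p = 0.000682) and *GLUD1* by −0.16 (SE 0.0472, adjusted p = 0.00796, up to 0.122 over the alternatives). *GOT2* had a log2 fold change of −0.01 with a 95% interval of −0.09 to 0.08.

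The low-count genes were less certain. *GLUD2* had 12, 14 and 5 counts with Cnsi and IFNγ and 3, 0 and 4 with PD-L1si and IFNγ, a log2 fold change of −1.92 (SE 0.582, adjusted p = 0.00898) that kept its call in all alternatives run. *GPT* had 22, 30 and 29 counts and then 56, 22 and 33, so that the groups overlapped, with a log2 fold change of 0.62 (SE 0.233, adjusted p = 0.0372). Without replicate 1 of PD-L1si and IFNγ it was 0.27 (adjusted p = 0.477). The call was also lost without replicate 1 of Cnsi and IFNγ (0.48, adjusted p = 0.173), without replicate 2 of Cnsi and IFNγ (0.63, adjusted p = 0.0741), in DESeq2 (adjusted p = 0.0725) and with only the groups compared (adjusted p = 0.0724), in a range of 0.00366 to 0.477. *GLS2* did not pass, with 0.58 (SE 0.303, adjusted p = 0.144), nor did *GLUL*, with −0.05 (95% interval −1.61 to 1.52).

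With the label 786-O, 1 of 7 genes rose under IFNγ with the siRNA and 0 fell, against 1.29% and 1.74% of all genes, and 2 of 7 had an adjusted p under 0.05, against 14.0%. *GPT* had 78, 55 and 68 counts with Cnsi and 103, 92 and 108 with PD-L1si, groups that did not overlap, and a log2 fold change of 0.55 (SE 0.177, adjusted p = 0.0386). The call was lost without each of 6 libraries in turn: Cnsi replicate 1 (adjusted p = 0.0504) or 2 (0.0507), Cnsi and IFNγ replicate 2 (0.164) or 3 (0.0576), and PD-L1si and IFNγ replicate 1 (0.142) or 3 (0.126), in a range of 0.00638 to 0.164 over all alternatives. *GPT2* moved down from 113, 126 and 119 to 102, 109 and 103 CPM, by −0.20 (SE 0.0484, adjusted p = 0.00663, up to 0.0507 over the alternatives). *GLS2* had 27, 18 and 19 counts and then 31, 36 and 33, and its log2 fold change of 0.60 did not pass (SE 0.230, adjusted p = 0.0885). *GOT1* had a log2 fold change of −0.03 with a 95% interval of −0.14 to 0.08. The siRNA effect on *GOT1* differed between the lines by 0.49 (SE 0.0719, adjusted p = 3.18e-06) and that on *GLUD2* by 2.07 (SE 0.528, adjusted p = 0.00435), so that 1 of 7 passed the call upward and 0 downward, against 2.96% and 2.64% of all genes, and 2 of 7 had an adjusted p under 0.05, against 16.3%. That of *GOT1* passed 0.5 without replicate 1 (0.50) or 3 (0.51) of Cnsi and IFNγ labelled A498, or without replicate 1 of Cnsi and IFNγ (0.50) or of PD-L1si and IFNγ (0.51) labelled 786-O. The siRNA effect on its target *CD274* also differed between the lines, by 1.87 (SE 0.091, adjusted p = 3.11e-18), with less silencing labelled 786-O. Whether unequal silencing bears on the differences of *GOT1* and *GLUD2* was not tested.

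Without IFNγ, the siRNA lowered *GPT2*. In the libraries labelled A498 it went from 130, 135 and 136 to 91.7, 94.2 and 88.3 CPM, groups well apart, with a log2 fold change of −0.55 (SE 0.0417, adjusted p = 5.27e-13). Of the 9 genes 0 rose and it alone fell, against 2.87% and 5.60% of all genes, and 2 of 9 had an adjusted p under 0.05, against 30.8%. *GOT2* moved up from 148, 140 and 142 to 154, 168 and 159 CPM, by 0.16 (SE 0.0426, adjusted p = 0.00382). *GFPT1*, at 169 to 171 and 166 to 170 CPM, had a log2 fold change of −0.01 with a 95% interval of −0.12 to 0.09. In cells labelled 786-O, *GPT2* moved down from 103, 102 and 103 to 83.0, 81.8 and 84.7 CPM, by −0.30 (SE 0.0487, adjusted p = 8.72e-05), and 0 of 7 genes passed the call with edgeR or DESeq2, against 1.19% of all genes that rose and 1.63% that fell. At an unadjusted p under 0.05 there were 3, and *GPT2* was the 1 of 7 at an adjusted p under 0.05, against 12.8% of all genes. *GPT*, at 0.42 (SE 0.159, adjusted p = 0.0883), passed without replicate 2 of PD-L1si (0.62, adjusted p = 0.00395, in a range of 0.00395 to 0.345). *GPT2* was thus lower with the siRNA, past the adjusted p, with and without IFNγ under both labels.

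Whether the siRNA altered the IFNγ effect was tested as an interaction within each line. With the label A498, 0 of 9 genes rose and 1 fell, against 1.81% and 0.645% of all genes, and 3 of 9 had an adjusted p under 0.05 (9.08% of all genes). This test uses the same libraries as the comparisons above. The IFNγ effect on *GOT1* turned from up in Cnsi to down in PD-L1si, a difference of −0.60 (SE 0.0625, adjusted p = 1.01e-08). That on *GFPT1* was smaller with PD-L1si by −0.47 (SE 0.0736, adjusted p = 4.83e-05), and by −0.57 without replicate 2 of PD-L1si and IFNγ. That on *GPT2* was larger by 0.37 (SE 0.0581, adjusted p = 2.74e-05). For *GLUD2* the difference was −2.21 (SE 0.741, adjusted p = 0.0544), on either side of the threshold depending on the alternative (adjusted p from 0.0325 to 0.158). With the label 786-O, 0 of 7 genes passed with edgeR or DESeq2, against 0.0377% of all genes that rose and 0.0613% that fell (0.217% at the adjusted p alone). There, 1 gene had an unadjusted p under 0.05, *GLS2* with 0.74 (SE 0.308, adjusted p = 0.512). The interaction of *GOT1* there was 0.11 (95% interval −0.05 to 0.27) and that of *GPT2* was 0.11 (−0.03 to 0.24).

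**Figure D3:**
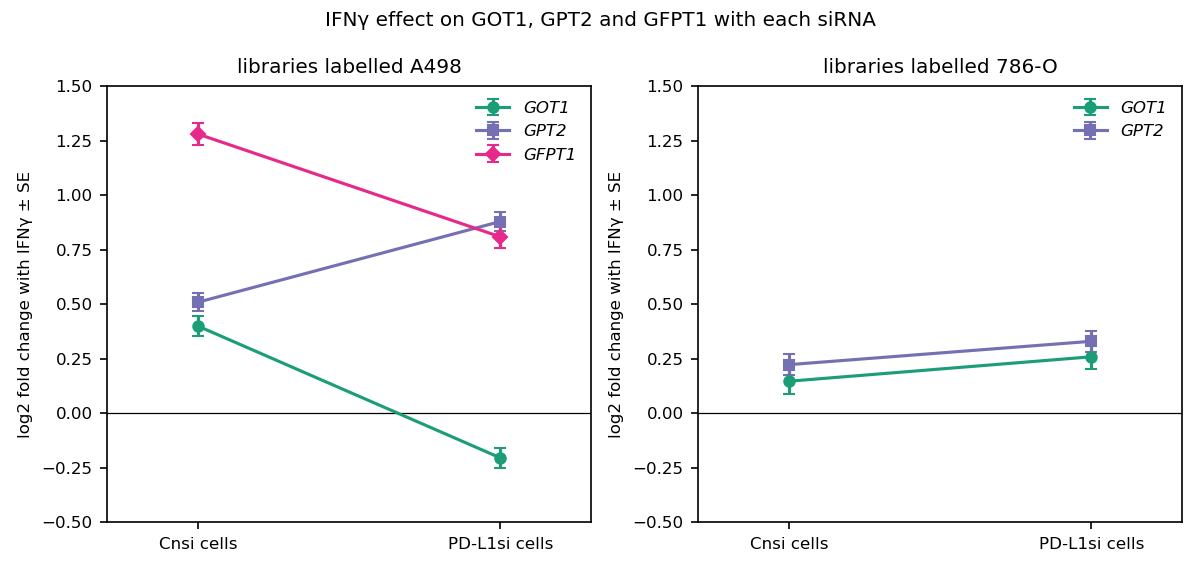
Log2 fold change with IFNγ and its standard error (whiskers) for *GOT1*, *GPT2* and *GFPT1* in Cnsi and in PD-L1si cells, labelled A498 (left) and 786-O (right). With the label A498, *GOT1* goes from 0.40 to −0.20, *GFPT1* from 1.28 to 0.81 and *GPT2* from 0.51 to 0.88, and with the label 786-O both genes measured stay between 0.15 and 0.33.

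Ratios of partner enzymes within a library do not depend on the scaling between libraries. The count of *GOT1* per count of *GOT2*, cytosolic over mitochondrial, was 0.546 ± 0.0127 (SD, n = 3) with Cnsi, 0.852 ± 0.0246 with Cnsi and IFNγ, 0.525 ± 0.018 with PD-L1si and 0.605 ± 0.0225 with PD-L1si and IFNγ in the libraries labelled A498. The Cnsi libraries with IFNγ (0.837 to 0.88) lay above all others of that label. With the label 786-O the ratios were 0.347 ± 0.00639, 0.390 ± 0.00424, 0.312 ± 0.0171 and 0.366 ± 0.00597 in the same order, with a higher ratio with IFNγ under each siRNA. The count of *GPT2* per count of *GPT* was 53.4 ± 6.29, 168 ± 33.1, 29.9 ± 3.13 and 105 ± 35.2 with the label A498, with no overlap between libraries with and without IFNγ under either siRNA, and with overlap between the siRNAs under IFNγ (137 to 203 and 71.3 to 142). It was 30.1 ± 1.67, 49.1 ± 11.5, 19.1 ± 5.32 and 28.8 ± 4.77 with the label 786-O. *GLUD2* made up 0% to 0.228% of the counts of both glutamate dehydrogenases in libraries labelled A498 and 4.33% to 6.30% in those labelled 786-O. The sequences of *GLUD1* and *GLUD2* are close, so that reads that fit both may be lost or placed on the wrong gene. Values of *GLUD2* are uncertain for this reason.

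Genes around these enzymes were taken from lists of known pathway roles. Among 7 genes listed under glutamine entry, all tested with the label A498, 3 rose and 0 fell with IFNγ in Cnsi cells (18.2% and 18.5% of all genes did). Their median log2 fold change was 0.41, against −0.03 for all genes tested. *SLC3A2*, *SLC38A5* and *SLC38A2*, subunit or carriers of amino acid transport, rose by 0.78, 0.77 and 0.64. Labelled 786-O, 0 rose and 3 of 6 genes tested fell (11.1% and 7.39% of all genes did), which were the transporters *SLC7A5* (−1.25), *SLC7A11* (−0.83) and *SLC38A1* (−0.63). *SLC7A5* and *SLC7A11* were listed here but are amino acid exchangers that are not specific to glutamine entry. The counts therefore describe the list, and glutamine import was not measured. Under IFNγ, the siRNA moved 7 of 7 entry genes down with the label A498 (1 past the fold threshold, *SLC38A5*, −0.54) and 4 of 6 with the label 786-O (2 past it, *SLC7A11*, −1.22, and *SLC38A2*, −0.66). The shares of all genes lower at this adjusted p were 17.8% and 8.06%. Without IFNγ the siRNA moved down 7 of 7 (2 past the fold threshold, median −0.34, against −0.27 under IFNγ) and 3 of 6 (1 past it), against 18.1% and 8.04% of all genes, so that the lowering was seen with and without IFNγ.

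The hexosamine pathway after *GFPT1* had 11 genes, of which 2 rose with IFNγ in Cnsi cells labelled A498 and 10 had an adjusted p under 0.05 (7 higher, 3 lower), against 18.2% of all genes that rose and 61.3% at that adjusted p. The share that rose was thus that of all genes. *UAP1*, which makes UDP-N-acetylglucosamine, went from 63.3 ± 3.34 to 127 ± 3.06 CPM, a log2 fold change of 1.00 (SE 0.0540, adjusted p = 1.08e-17). *RENBP*, an epimerase that feeds N-acetylmannosamine back into the pathway, went from 0.425 ± 0.227 to 4.41 ± 0.350 CPM, one of 3.35 (SE 0.225, adjusted p = 2.02e-15). Under IFNγ the siRNA lowered the same pair, *UAP1* by a log2 fold change of −0.64 (SE 0.0537, adjusted p = 1.07e-11) and *RENBP* by one of −1.37 (SE 0.175, adjusted p = 6.89e-08). Without IFNγ the siRNA effects were −0.17 (SE 0.0563, adjusted p = 0.0224) and −2.43 (SE 0.550, adjusted p = 0.000651). The IFNγ effect on *UAP1* was smaller in PD-L1si cells (0.53, interaction −0.47, SE 0.0778, adjusted p = 6.87e-05). That on *RENBP* was 4.41 there, from 0.0753 ± 0.0360 to 1.67 ± 0.366 CPM, and its interaction did not pass (1.05, SE 0.601, adjusted p = 0.321). The folds of *RENBP* start from very low levels without IFNγ (0.425 and 0.0753 CPM), so their size is uncertain. Labelled 786-O, 0 of the 10 genes tested rose or fell with IFNγ in Cnsi cells, against 11.1% and 7.39% of all genes. There, *UAP1* moved the other way, from 38.9 ± 1.52 to 32.3 ± 0.208 CPM (−0.26, SE 0.0582, adjusted p = 0.000652). The difference between lines was −1.27 (SE 0.0832, adjusted p = 3.31e-16). *GFPT2*, the second gene of the *GFPT1* reaction, was at 5.93 ± 0.930 CPM in Cnsi cells and 11.0 ± 0.306 after IFNγ labelled A498 (0.89, SE 0.107, adjusted p = 5.21e-09), and at 77.7 ± 3.50 and 45.7 ± 10.7 labelled 786-O (−0.77, SE 0.137, adjusted p = 0.00139).

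Among 9 other amidotransferases, which take nitrogen from glutamine for nucleotides, asparagine and NAD, 2 rose and 2 fell with IFNγ in Cnsi cells labelled A498: *GFPT2* (0.89), *ASNS* (0.75), *PFAS* (−1.02) and *CTPS2* (−0.53). Over all genes, 18.2% rose and 18.5% fell with the label A498, and 11.1% and 7.39% with the label 786-O, and these shares stand beside each count that follows. With the label 786-O they were 1 and 1, *ASNS* (0.95) and *GFPT2* (−0.77). Of the other transaminases, 4 rose and 2 fell of 9 tested with the label A498, and 3 rose of 10 with the label 786-O. *PSAT1*, the serine pathway enzyme that uses glutamate, rose in both, from 293 ± 10.7 to 616 ± 15.6 CPM (1.07, SE 0.0463, adjusted p = 6.63e-21) and from 86.0 ± 4.94 to 161 ± 34.8 (0.90, SE 0.127, adjusted p = 0.000271). *OAT*, ornithine aminotransferase, fell by −1.04 with the label A498. Of the malate-aspartate shuttle list, 1 rose and 2 fell of 7 tested with the label A498, and 2 rose and 0 fell of 5 with the label 786-O. The mitochondrial glutamate carrier *SLC25A22* was listed there but is not one of the shuttle's carriers. It rose with IFNγ in both, by 1.90 (SE 0.0602, adjusted p = 1.52e-24) and 1.12 (SE 0.0514, adjusted p = 1.16e-15). *MDH1* (−0.76) and *SLC25A11* (−0.62), which belong to the shuttle, fell with the label A498. Among 9 enzymes between glutamate and proline or glutathione, 1 rose and 2 fell with the label A498, and 0 rose and 2 fell with the label 786-O. *PRODH*, which degrades proline, fell in both (−1.87 and −1.39). *ALDH18A1*, on the path to proline, also fell in both (−0.90 and −0.66), and *GCLM* rose with the label A498 (1.25). Of 4 genes of GABA and folate glutamate tested with the label A498, 2 fell, *ALDH5A1* (−1.13) and *GGH* (−1.10).

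**Figure D4:**
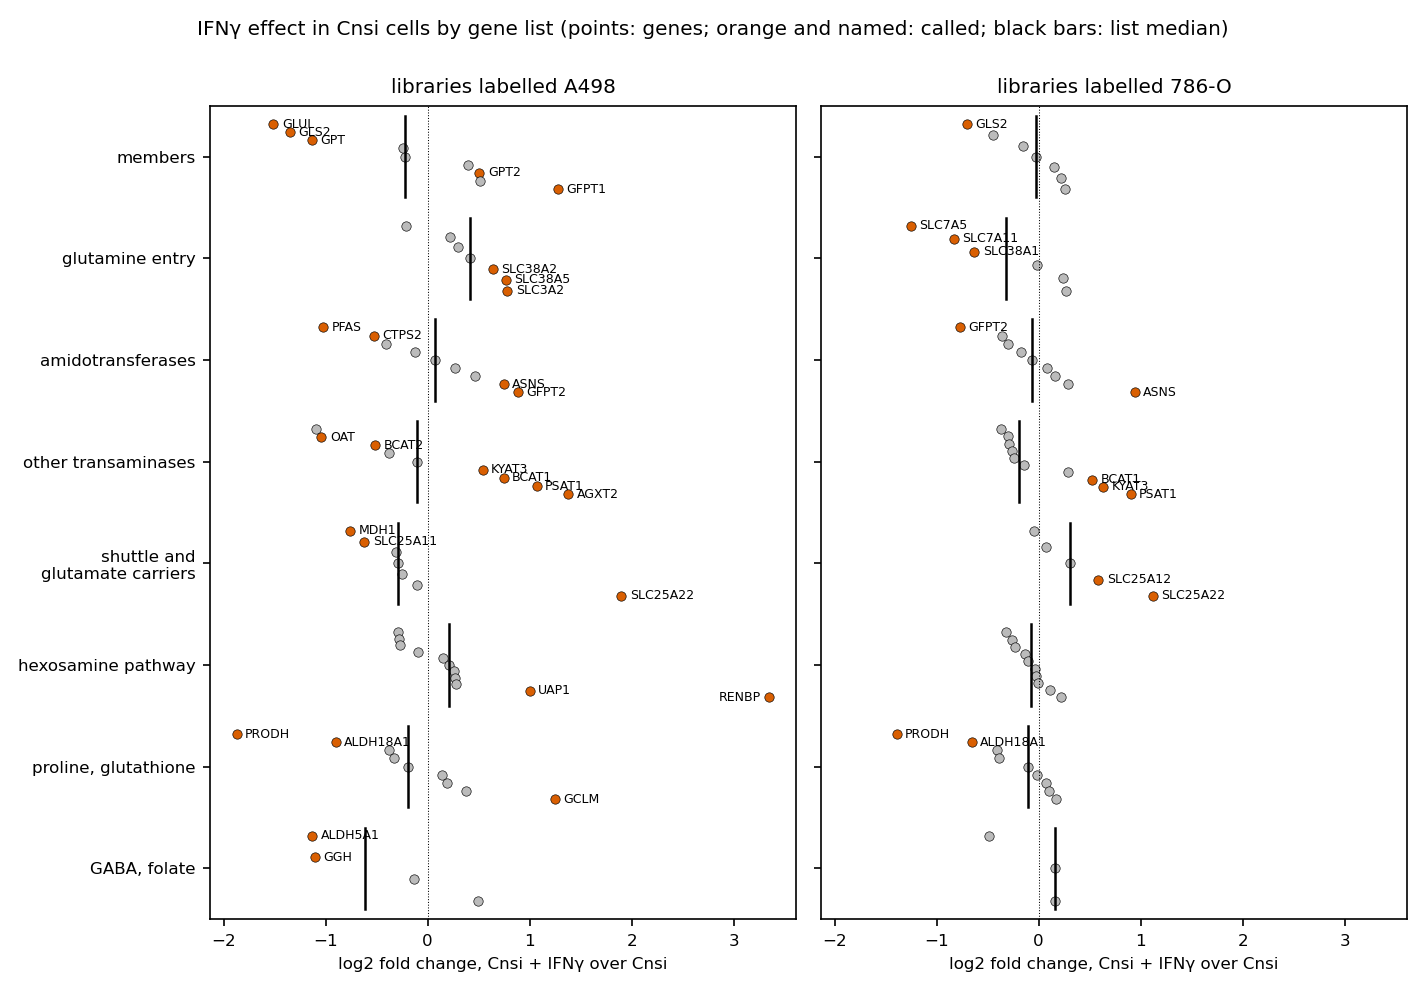
Log2 fold change with IFNγ in Cnsi cells for the 9 genes and the pathway lists, one point per gene, labelled A498 (left) and 786-O (right). Orange points with names passed the call, grey points did not, and black bars are list medians. *RENBP* at 3.35 and *SLC25A22* at 1.90 lie farthest right with the label A498, and the medians of the 9 genes are −0.22 and −0.02. The fold of *RENBP* starts from a very low level without IFNγ.

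The genes whose pattern was most like each member's were found by Pearson's r of log2(CPM + 1) over 24 libraries, with the mean of each line removed, among 12590 to 12591 genes with a mean of at least 1 CPM in each line. These points share libraries and treatments, so r is a description. *GPT2* was most like *LONP1* (r = 0.988) and *JUNB* (r = 0.982), *GOT2* like *MCRS1* (0.946, but 0.973 within the label A498 and 0.479 within 786-O), *GPT* like *TAF1C* (0.912) and *GLUD1* like *CYFIP1* (0.901). *GLS2* was most like the mitochondrial genes *MT-ND6* (0.891) and *MT-ND5* (0.873), and *GOT1* like *NUP93* (0.861). *GLUD2* had no gene above 0.701 (*UQCRC1*, 0.769 within the label A498 and 0.368 within 786-O). Among the 7 genes themselves, *GPT2* ran against *GOT2* (r = −0.828) and *GPT* (r = −0.820), and *GLS2* ran with *GPT* (r = 0.685).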

How the data were processed

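The count table was deposited as raw counts per gene, which the authors made from stranded RNA libraries with Trimmomatic 0.36.6, HISAT2 2.1.0 on GRCh38 and featureCounts 1.6.3 with GENCODE release 33 (versions per the labels and the submitters' processing notes). There were 1475 rows with more than 1000 counts labelled A498 and 0 in all libraries labelled 786-O, and 35 rows with the reverse. Of the 1475 rows, 1.288% carry the same identifier version as GENCODE release 44, against 70.878% of genes counted in both. Symbols and positions were taken from release 44, in which 39148 of 39321 rows matched.

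Within each line of 12 libraries, genes with a summed count of 10 or more in any group (20916 and 21209 genes) were tested with edgeR 4.0.16 in R 4.3.3 (TMM, robust quasi-likelihood F-test, one mean per group). Benjamini-Hochberg adjustment ran over all genes, with calls at an adjusted p under 0.05 and a log2 fold change over 0.5. A model of all 24 libraries tested differences between lines. Standard errors are the log2 fold change over the root of F, and 95% intervals use 1.96 of them. This is a normal approximation, so the intervals are somewhat narrower than the F-test implies. Replicate pairs differed by more than sampling noise. The scripts were tested on simulated data. The 9 genes and the pathway lists were chosen with earlier results of these data known. The rule for naming took all 9 genes, *CD274*, and at most 4 called genes with the largest change from each list and comparison, and further values of *GFPT2* and *UAP1* were added to compare lines. A gene of the glutamine entry list is not reported here and was left out of that list's counts. Alternatives were DESeq2 1.42.0, relative log expression scaling, other filters, protein-coding genes, a replicate block, the compared groups alone and leaving out each library. Promoter sequences are from RefSeq, which matched 7 of the 9 genes.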

Additional observations from a re-analysis of the deposited data

Results flagged for a closer look

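The results below were singled out because an effect differed between the lines or between the siRNAs by a direct test, a contrast of the effects in the quasi-likelihood F-test of edgeR, adjusted by Benjamini-Hochberg. The IFNγ effect in Cnsi cells differed between lines, with the value labelled A498 subtracted from that labelled 786-O, for *GLUD1* by 0.47 (adjusted p = 3.41e-06), for *GOT1* by −0.26 (adjusted p = 0.00253), for *GOT2* by 0.21 (adjusted p = 0.00675) and for *GPT2* by −0.29 (adjusted p = 0.00012), all in log2 fold change and under the fold threshold of 0.5. The siRNA effect under IFNγ differed for *GLUD2* by 2.07 (adjusted p = 0.00435) and for *GOT1* by 0.49 (adjusted p = 3.18e-06). Between the siRNAs in the libraries labelled A498, the IFNγ effect differed for *GOT1* by −0.60 (adjusted p = 1.01e-08), for *GFPT1* by −0.47 (adjusted p = 4.83e-05) and for *GPT2* by 0.37 (adjusted p = 2.74e-05). Line and sequencing instrument cannot be told apart in the first 6 of these. The siRNA also silenced *CD274* itself less under IFNγ with the label 786-O (difference 1.87, adjusted p = 3.11e-18), and a bearing of this on the siRNA differences between lines was not tested.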

How the results depend on the processing

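Of 1910 values recomputed for 94 results of the 9 genes, 1819 kept their direction and their call (adjusted p and fold together), 23 lost and 27 gained a call, and 41 changed sign, of which 0 belonged to a result with an adjusted p under 0.05. The adjusted p alone lay on both sides of 0.05 over the alternatives for 19 of the 94 results, 8 of which kept their call throughout since the fold stayed under 0.5. Under the test of protein-coding genes alone, log2 fold changes with IFNγ in PD-L1si cells labelled 786-O turned to −0.00207 for *GLS2* and −0.00393 for *GOT2*. The siRNA effect without IFNγ on *GFPT1* labelled A498 turned to 0.000257 with edgeR's filter, 0.00532 with protein-coding genes and 0.00328 with only the groups compared. Without a filter, the difference between lines in the siRNA effect on *GPT2* turned to 0.00131. When single libraries were removed, signs turned within these ranges: for IFNγ in PD-L1si cells labelled 786-O, *GLS2* −0.0856 to 0.117, *GLUD2* −0.172 to 0.0129 and *GOT2* −0.0526 to 0.0631. For the siRNA under IFNγ labelled A498, *GLUL* −0.982 to 0.326 and *GOT2* −0.0466 to 0.0152. For the siRNA without IFNγ, *GFPT1* −0.0175 to 0.0121 and *GLUD2* −0.00435 to 0.603 labelled A498, and *GLUD2* −0.0378 to 0.125 and *GOT2* −0.0222 to 0.071 labelled 786-O. For interactions, *GLUD1* −0.0891 to 0.00726, *GLUL* −0.255 to 1.24 and *GPT* −0.0331 to 0.538 labelled A498, and *GOT2* −0.00727 to 0.0852 and *GPT* −0.0682 to 0.243 labelled 786-O. For the difference between lines in the siRNA effect, *GLS2* −0.157 to 0.274, *GPT* −0.262 to 0.293 and *GPT2* −0.0454 to 0.0316. The cause was not tested. The count of genes with an interaction labelled 786-O was 21, and 47 without a filter on low counts (more genes tested), and ran from 8 to 40 when single libraries were removed.

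Replicate numbers were not treated as pairs. After removal of group means, same-numbered libraries correlated by 0.0499 (labelled A498) and 0.028 (labelled 786-O) on average, with a lowest pair of −0.0964 and −0.322. The highest same-numbered pair was at 0.248 and 0.268. Libraries with different numbers correlated by −0.0249 and −0.0136 on average. Removal of group means ties these averages to those of same-numbered libraries, so they are no separate reference. The averages of same-numbered libraries stayed under the limit of 0.1 used for pairing, although single pairs lay above it. With a replicate block, *GLUD2* gained a call in the interaction labelled A498 (−2.19, adjusted p = 0.0462) and *GPT* in the difference between lines in the IFNγ effect (0.66, adjusted p = 0.0401), no other call of the 9 genes changed, and the number of genes called in Cnsi cells with IFNγ was 7670 against 7688 labelled A498 and 3869 against 3914 labelled 786-O. Depth limits *GLUL* (1 to 8 counts), *GLUD2* labelled A498 (0 to 14 counts), *GLS2* and *GPT*. Outside the 9 genes it also limits *RENBP* labelled A498.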
